A study of Homo sapiens with 6 samples.

Results

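The genes described here are 10 that cells switch on when oxygen is short or when glucose is burned by glycolysis: SLC2A1, HK2, PFKFB4, LDHA, PDK1, CA9, VEGFA, ADM, BNIP3 and NDRG1. They were chosen by symbol, and each symbol is carried by 1 probe set of the 135750 transcript probe sets on the array, so 10 probe sets stand for the 10 genes. RNA came from MCF10.AT1, a fluvastatin sensitive human breast epithelial line, and from MCF10.AT1-R, the fluvastatin resistant line selected from it. MCF10.AT1 belongs to the MCF10A progression series and carries an activated HRAS gene. The study calls it preneoplastic, while its label reads breast cancer, and the label describes it as untreated. MCF10.AT1-R was selected in stepwise doses of fluvastatin, an inhibitor of HMG-CoA reductase, from 1 to 20 µM, and it is a single derived line compared with its parent. Both lines grew in the same medium, and the oxygen level, the cell density and whether fluvastatin was present at harvest are not given in the sources used here. The labels call the 3 samples of each line biological replicates, all of 1 line each. The p-values thus rest on the spread between cultures of these lines, pooled over probe sets in the way given below.

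Cells sense oxygen through the HIF transcription factors. Prolyl hydroxylases mark the HIF alpha subunits for destruction while oxygen is present, and in its absence the alpha subunit pairs with ARNT and binds a short DNA core in its target genes. These targets bring in more glucose, raise glycolysis, keep pyruvate out of the mitochondria, export acid and call for new vessels. In epithelial tumours the same set is a common readout of low oxygen and of growth factor or RAS signalling.

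The promoters of 8 of the 10 genes were read from RefSeq (GRCh38.p14), in windows from 250 bases before to 50 bases after a gene's start. VEGFA and NDRG1 were not printed. The HIF core was searched as ACGTG or GCGTG on both strands. All 8 genes hold at least 1 core. They have 11 windows, of which 10 hold one, while 48.4% of all 35116 windows do. ACGTG alone occurs in 21.4% of windows and GCGTG in 36.5%. The E-box CACGTG, which contains ACGTG on both strands and is also read by MYC-type factors, occurs in 7.26% of windows and in those of HK2, LDHA and BNIP3. The stretches below are shown because they carry cores of the 7 genes with a core before the start, those of HK2 and PDK1 from the second of 2 annotated starts. They run 5′ to 3′ on the gene's strand, and capitals mark the cores. The core of SLC2A1 lies after the start and is not shown.
CA9, chr9:35673888-35673927, plus strand: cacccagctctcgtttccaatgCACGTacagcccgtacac
ADM, chr11:10304953-10304992, plus strand: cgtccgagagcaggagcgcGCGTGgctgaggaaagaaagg
PDK1, chr2:172556050-172556089, plus strand: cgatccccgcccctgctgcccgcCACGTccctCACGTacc
BNIP3, chr10:131982015-131982073, minus strand: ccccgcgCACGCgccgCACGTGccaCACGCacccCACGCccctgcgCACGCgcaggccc
LDHA, chr11:18394463-18394508, plus strand: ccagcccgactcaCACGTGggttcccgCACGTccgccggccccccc
PFKFB4, chr3:48556949-48556988, minus strand: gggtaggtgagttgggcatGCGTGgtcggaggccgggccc
HK2, chr2:74834965-74835030, plus strand: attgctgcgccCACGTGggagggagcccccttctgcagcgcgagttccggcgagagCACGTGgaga

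BNIP3 holds 6 cores within its 59 printed bases, counting both strands, and PDK1 holds 2 just before its start. HK2 holds 9 cores over its 2 windows and LDHA 7 over its 2, while CA9, ADM, PFKFB4 and SLC2A1 hold 1 each.

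Expression was measured on Clariom D arrays as RMA values on the log2 scale, where a difference of 1 is a doubling of signal. The comparison used arrays A01 and A02 of MCF10.AT1 and B02, B03 and B04 of MCF10.AT1-R. The labels do not spell out these letters, and A was read as MCF10.AT1 because the study removed A03 and shows 2 parental arrays, so every direction given here rests on that reading. A further parental array, A03, was removed by the study as an outlier and is given apart. Its hybridization controls averaged 5.99 against 10.35 to 11.33 on the others, and its correlation with them over transcript probe sets was 0.779 to 0.795, while the other 5 arrays correlated at 0.967 to 0.977. The line was checked against markers. All 8 basal and all 5 general epithelial markers were above the 95th percentile of the negative control probe sets on all 5 arrays, and 5 and 3 of them were past FDR 5%, all higher in MCF10.AT1-R. The summed log2 value of the basal markers was 54.0 and 54.5 in MCF10.AT1 and 67.4 to 68.0 in MCF10.AT1-R, and that of the epithelial markers 38.2 and 38.3 against 44.8 to 45.5. Of the endothelial, leukocyte and fibroblast markers, 3 of 6, 3 of 6 and 3 of 7 were above the controls on all 5 arrays, and PTPRC, KDR, TEK, LYZ, PDGFRB and LUM were above them on none. PECAM1, CD14 and DCN were past FDR 5% and lower in MCF10.AT1-R. The summed fibroblast list was 30.2 and 30.7 in MCF10.AT1 and 27.6 to 28.7 in MCF10.AT1-R, the endothelial list 19.9 and 20.2 against 17.9 to 18.9, and the leukocyte list 16.6 and 18.4 against 17.6 to 19.2. The part of any of these shifts in the results below was not tested. In such bulk RNA, fewer cells with a transcript and less transcript in each cell cannot be told apart.

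All 10 genes had a lower mean in MCF10.AT1-R, by 0.06 to 0.82 on the log2 scale, and none passed FDR 5% in limma, which 1.2% of all tested probe sets did. With A03 counted as a parental array, 6 of the 10 means were higher in MCF10.AT1-R instead. For 8 of the 10 every MCF10.AT1-R array lay below both MCF10.AT1 arrays, the exceptions being SLC2A1 and HK2. CA9, ADM and PDK1 had the largest differences and LDHA, HK2 and SLC2A1 the smallest. Among the 67875 probe sets past the low-expression filter, a mean of the log2 values above 1.88, 13.2% lay below in this way and 51.1% had a lower mean. The median log2 change of the 10 was -0.41, and that of all these probe sets was -0.008. The 10 genes were measured on the same 5 arrays and are not independent of each other.

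**Figure D1:**
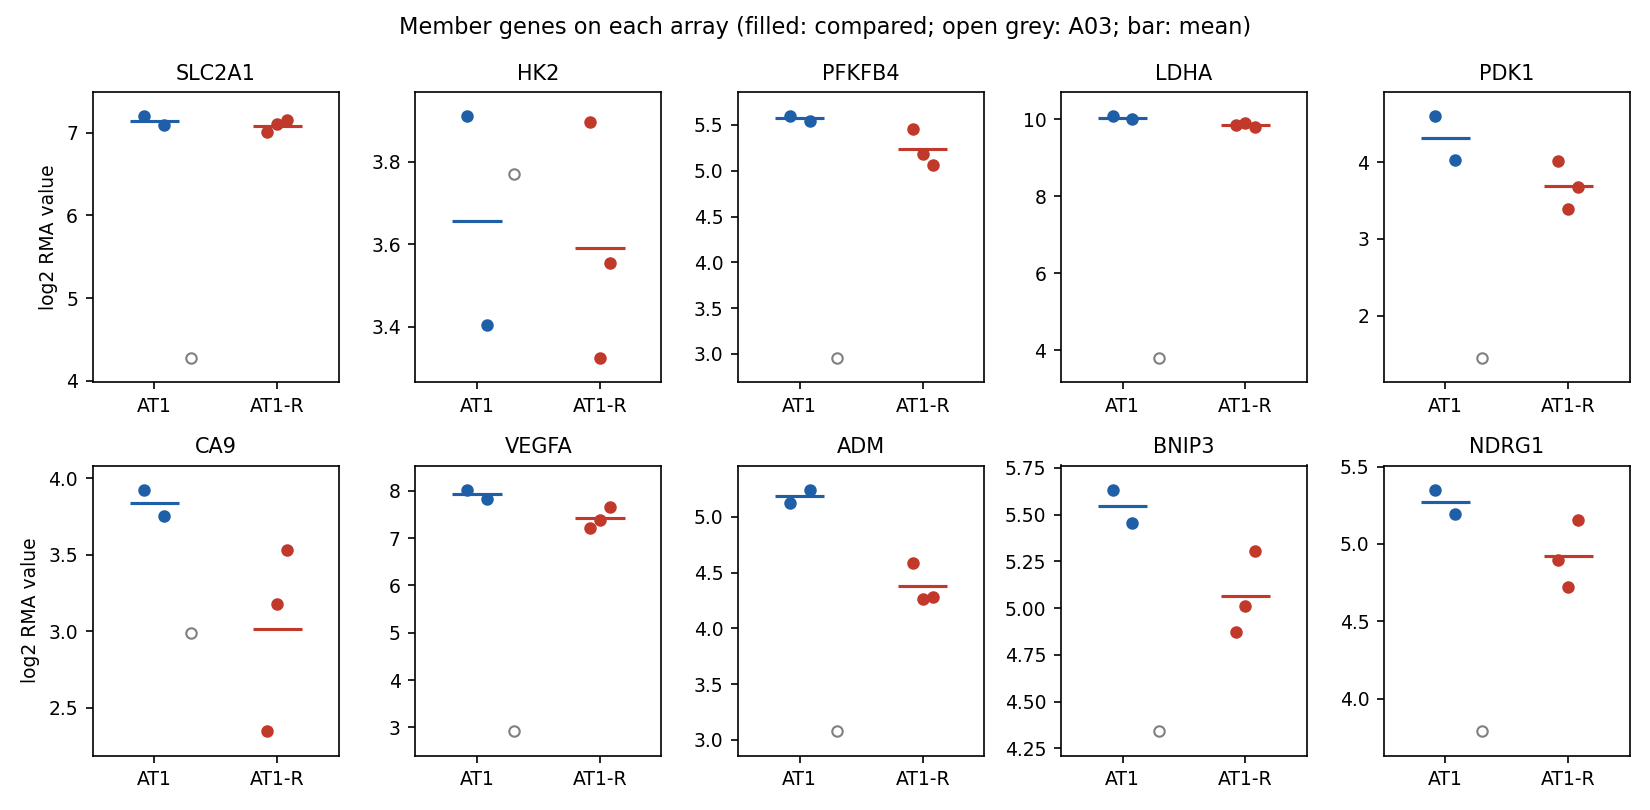
Each panel plots 1 of the 10 genes, with the log2 RMA value on a vertical axis of its own that does not start at 0, filled points for the 5 compared arrays (blue MCF10.AT1, red MCF10.AT1-R), a bar for the mean of each line and an open grey point for A03. The red points lie below both blue points in 8 panels and overlap them for SLC2A1 and HK2, and A03 lies below every other array in 8 panels.

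SLC2A1 (probe set TC0100013908.hg.1) encodes GLUT1, the main glucose carrier of proliferating epithelial cells. Its log2 values were 7.20 and 7.09 on A01 and A02 and 7.003, 7.10 and 7.15 on B02, B03 and B04. A03 read 4.28. The 2 lines overlapped, and the log2 change was -0.06 (95% interval -0.48 to 0.36, adjusted p = 0.974 from limma without a filter). SLC2A1 and LDHA were so alike across the 5 arrays that the filter on invariant probe sets had removed them.

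HK2 (probe set TC0200008099.hg.1), the inducible hexokinase that phosphorylates incoming glucose, read 3.91 and 3.40 in MCF10.AT1 and 3.90, 3.32 and 3.55 in MCF10.AT1-R. A03 read 3.77. The highest and lowest arrays of both lines nearly coincided, and the change of -0.07 (95% interval -0.68 to 0.55) was smaller than the SD of either line, 0.36 (n = 2) and 0.29 (n = 3). The interval leaves room for differences in either direction. Without A01 the log2 change was 0.19 and without B03 it was 0.07.

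PFKFB4 (probe set TC0300013970.hg.1) makes fructose-2,6-bisphosphate, the activator of phosphofructokinase. It read 5.60 and 5.55 in MCF10.AT1 and 5.45, 5.18 and 5.06 in MCF10.AT1-R, so B02 came within 0.09 of the parental arrays. A03 read 2.96. Its log2 change was -0.34 (adjusted p = 0.835 from limma).

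LDHA (probe set TC1100007003.hg.1), which turns pyruvate into lactate, was 10.08 and 10.001 in MCF10.AT1 and 9.86, 9.90 and 9.81 in MCF10.AT1-R. A03 read 3.80. The lines did not overlap and their SDs were small, 0.05 (n = 2) and 0.04 (n = 3), but the difference was small too, at 88.0% of the parental level on the linear scale. The log2 change was -0.18 (95% interval -0.60 to 0.23, adjusted p = 0.895 from limma without a filter). Processed copies of LDHA and of BNIP3 exist in the genome and may share probe sequence with them.

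PDK1 (probe set TC0200009978.hg.1) is a kinase that blocks pyruvate dehydrogenase and so keeps pyruvate out of the citrate cycle. Its values were 4.60 and 4.02 in MCF10.AT1 and 4.01, 3.39 and 3.67 in MCF10.AT1-R. A03 read 1.45. Only 0.006 separated A02 from B02, and the 2 parental arrays differed by nearly as much as the lines did. The log2 change was -0.62 (95% interval -1.23 to -0.004, adjusted p = 0.598 from limma). Leaving out A01 brought it to -0.33 and leaving out A02 to -0.90.

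CA9 (probe set TC0900007094.hg.1), a cell surface carbonic anhydrase that disposes of acid and is a well-known HIF target, had the largest difference as measured, though not when values under the negative controls were raised to their 95th percentile. It read 3.93 and 3.76 in MCF10.AT1 and 2.35, 3.18 and 3.53 in MCF10.AT1-R, which is 56.6% of the parental level. A03 read 2.99. The resistant arrays were spread widely (SD 0.61, n = 3), and B02 lay within the negative controls, whose 95th percentile was 2.88 on that array. The log2 change was -0.82 (95% interval -1.43 to -0.21, adjusted p = 0.277 from limma). It was -0.49 without B02 and -1.08 without B04. With the raised values it was -0.61, against -0.81 for ADM and -0.62 for PDK1.

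VEGFA (probe set TC0600008109.hg.1), the leading growth factor of new vessels, was 8.02 and 7.83 in MCF10.AT1 and 7.22, 7.39 and 7.65 in MCF10.AT1-R. A03 read 2.92. All resistant arrays were lower, and the level was 70.4% of that of the parent. The log2 change was -0.51 (95% interval -1.12 to 0.10, adjusted p = 0.734 from limma). VEGFA was the 1 gene of the 10 that passed when the variance was allowed to follow the expression level (adjusted p = 0.0356 from limma with the trend option), a setting that called 2.68% of all tested probe sets. Over its 15 alternatives the adjusted p from limma ran from 0.0356 to 0.967.

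ADM (probe set TC1100006831.hg.1) encodes adrenomedullin, a vessel-relaxing peptide hormone. It showed the clearest separation between the lines, with 5.12 and 5.24 in MCF10.AT1 against 4.58, 4.27 and 4.28 in MCF10.AT1-R. A03 read 3.07. The nearest arrays of the lines were 0.54 apart, more than the SDs of 0.09 (n = 2) and 0.18 (n = 3). The log2 change was -0.81 (95% interval -1.42 to -0.19, adjusted p = 0.298 from limma), or 57.2% of the parental level, and it stayed between -0.91 and -0.74 whichever of the 5 arrays was left out.

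BNIP3 (probe set TC1000012329.hg.1) directs mitochondria to autophagy. It read 5.63 and 5.46 in MCF10.AT1 and 4.87, 5.01 and 5.31 in MCF10.AT1-R, with a log2 change of -0.48 (95% interval -1.09 to 0.13, adjusted p = 0.756 from limma). The closest arrays of the lines, A02 and B04, were 0.15 apart. A03 read 4.34.

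NDRG1 (probe set TC0800011881.hg.1), a stress-induced gene linked to differentiation and to control of metastasis, read 5.35 and 5.19 in MCF10.AT1 and 4.90, 4.72 and 5.15 in MCF10.AT1-R. A03 read 3.79. B04 came within 0.04 of A02. The log2 change was -0.35 (adjusted p = 0.833 from limma), close to that of PFKFB4.

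**Figure D2:**
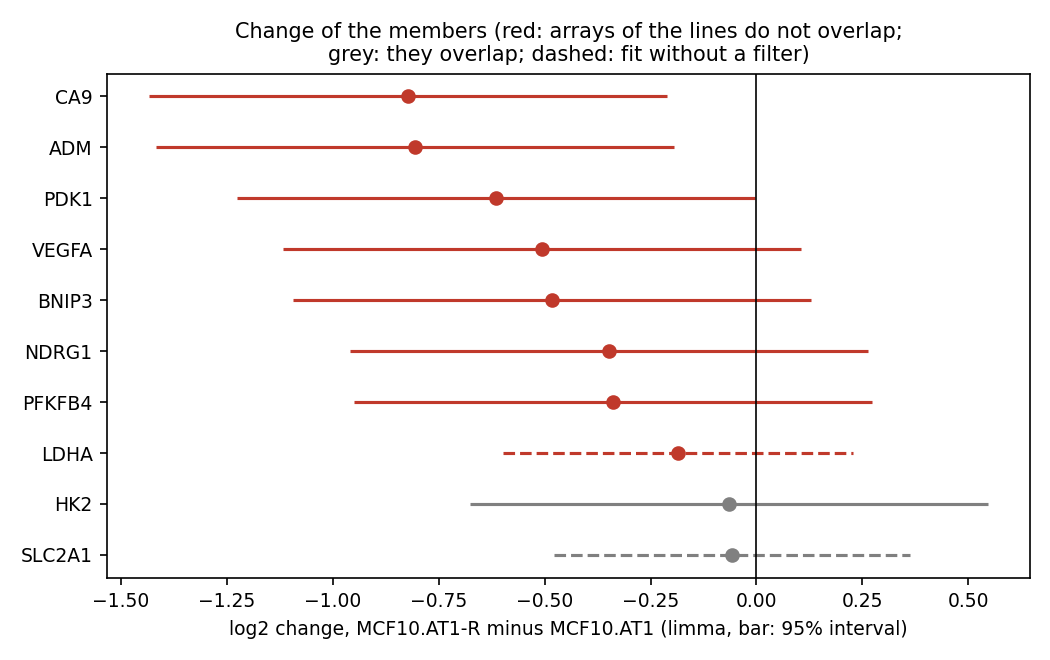
The horizontal axis gives the log2 change of each of the 10 genes, MCF10.AT1-R minus MCF10.AT1, with its 95% interval from limma, red where the arrays of the lines do not overlap and grey where they do, dashed for the 2 genes taken from the fit without a filter. All points lie below 0, from -0.06 for SLC2A1 to -0.82 for CA9, and the intervals of CA9, ADM and PDK1 exclude 0 before adjustment.

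Of the 51457 probe sets that passed the filters on low and invariant values, 620 were past FDR 5%, or 1.2%, and the smallest log2 change among them was 1.07. None of the 8 genes tested reached that. At an unadjusted p below 0.05, 3 of the 8 were lower in MCF10.AT1-R (CA9, ADM and PDK1), against 4.27% of all tested probe sets. limma used 1 common SD of 0.34 for all probe sets after these filters, which gave each of the 8 genes a standard error of 0.31. The SD within lines was below 0.34 for 6 of these 8, at 0.15 for ADM and 0.20 for BNIP3, and above it for CA9 at 0.50 and PDK1 at 0.35.

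The arrays within a line also differed over the 10 genes as a group. On A01 9 of the 10 read higher than on A02, all but ADM, while 48.1% of the probe sets past the low-expression filter did so. The mean over the 10 genes was 0.09 above the parental mean on A01 and 0.09 below it on A02. It was below the parental mean by a log2 value of -0.43 on B02, -0.50 on B03 and -0.33 on B04. The lowest resistant array was B02 for 4 genes, B03 for 4 and B04 for 2. With A03 counted as MCF10.AT1, none of the 10 genes kept the resistant arrays below every parental array, as A03 read lower than all 5 others for 8 genes, against 22.4% of probe sets past the low-expression filter.

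The rest of the pathway did not share one direction. A further 124 genes on 6 lists were looked up, of which 79 passed the filters. Of these 79, 8 passed FDR 5%, 4 higher and 4 lower in MCF10.AT1-R, against 1.2% of all tested probe sets. The median log2 change of the 124 was 0.03. All resistant arrays lay below both parental ones for 25 of the 124 and above both for 26, against 13.2% and 12.9% of probe sets past the low-expression filter. The 4 that fell were PDK4, NRP1, LOX and STC2, and the 4 that rose were EDN1, SLC2A9, SLC2A12 and BHLHE40. PDK4, NRP1, LOX and EDN1 remained past FDR 5% whichever of the 5 arrays was left out. EDN1, STC2, SLC2A12 and BHLHE40 fell short of it without a filter and with the low-expression filter alone. The trend option called 15 of the 79, these 8 with PDP1, ALDOA, EGLN2, NRP2, DDIT4, IGFBP3 and NT5E.

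**Figure D3:**
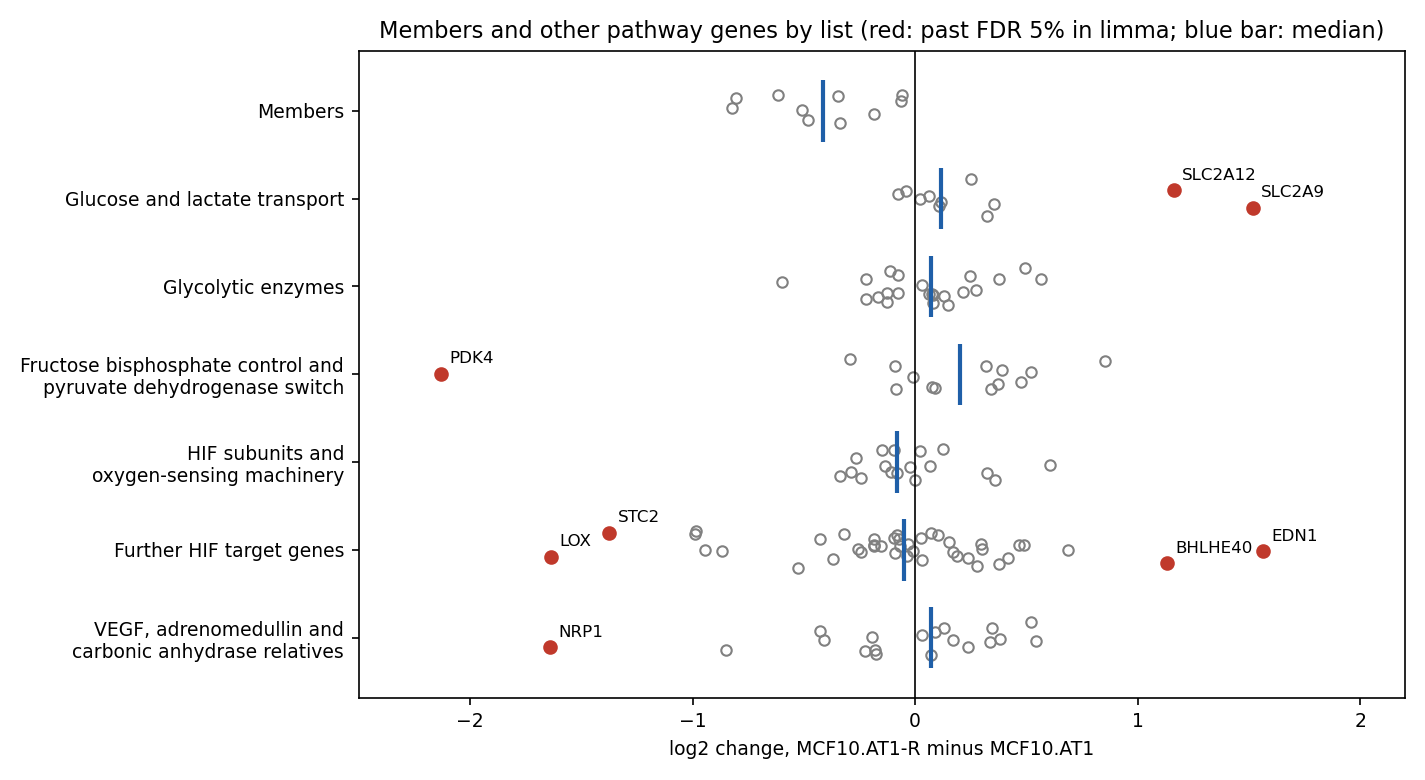
Each point is 1 gene placed by its log2 change, MCF10.AT1-R minus MCF10.AT1, in the row of its list, red and named where it passed FDR 5% in limma, with a blue bar at the median of the row. The row of the 10 genes lies wholly below 0 with a median of -0.41, while the medians of the 6 other rows lie between -0.08 and 0.20.

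Of 11 other carriers of glucose, lactate or their partners, 8 passed the filters. Past FDR 5%, 2 of the 8 rose and none fell, against 1.2% of all tested probe sets. The median change of the 11 was 0.12. SLC2A9, a urate and sugar carrier, read 3.77 and 3.55 in MCF10.AT1 and 5.34, 5.06 and 5.13 in MCF10.AT1-R, which is a log2 change of 1.52 with an adjusted p in limma of 0.000268. Without A02 its adjusted p from limma was 0.0866. SLC2A12, a glucose carrier, lay within the negative controls on both parental arrays (mean 2.74) and at 3.50, 3.88 and 4.31 in MCF10.AT1-R (mean 3.90). SLC2A12 was thus at least 1.76-fold higher, counting the controls' 95th percentile as the parental level. Its adjusted p from limma was 0.0212 on the values as measured and 0.604 with values raised to the negative controls. It lost FDR 5% without A01, A02, B03 or B04, with an adjusted p of 0.486 from limma at most. Among the others SLC16A1, the lactate carrier MCT1, changed by 0.35, its chaperone BSG by 0.25 and SLC2A8 by 0.12, none past the threshold. The 8 probe sets of SLC16A1 changed by -0.15 to 0.47, so its direction depends on the probe set.

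None of the 22 other glycolytic enzymes passed FDR 5%, and their median change was 0.07. At an unadjusted p below 0.05 there was also none, and of the 11 that passed the filters ALDOA was the 1 called with the trend option. ALDOA, the aldolase of most tissues, read 8.25 and 8.35 in MCF10.AT1 and 8.73, 8.75 and 8.90 in MCF10.AT1-R, a log2 change of 0.49, while its relative ALDOC, a known hypoxia-induced form, changed by -0.60. PFKL changed by 0.27, with the arrays of the lines overlapping. GAPDH changed by -0.13, PGK1 by 0.08, ENO1 by -0.22, PKM by 0.25 and LDHB by -0.08. ENO1 was lower on all resistant arrays, and as an invariant probe set it was not among those tested. In limma without a filter its adjusted p was 0.871, and 0.0351 with the trend option added to that unfiltered fit. Many of these genes have processed copies that may share probes.

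In the control of pyruvate entry, the kinases differed among themselves. PDK4, the kinase induced by fasting and fatty acids, read 4.15 and 3.97 in MCF10.AT1 and 1.87, 1.83 and 2.09 in MCF10.AT1-R (means 4.06 and 1.93). All resistant arrays lay within the negative controls, so PDK4 was at least 2.19-fold lower there, counting the controls' 95th percentile on these arrays as the resistant level. Its adjusted p of 5.47e-09 from limma rests on the values as measured. With values raised to 2.99, the controls' percentile over the 5 arrays, the log2 change was -1.07 and the adjusted p from limma 0.0559. PDK2 changed by 0.09, and PDK3 lay within the negative controls on all 5 arrays. PDP1, the phosphatase that reverses the kinases, read 7.37 and 7.41 in MCF10.AT1 and 8.17, 8.20 and 8.34 in MCF10.AT1-R, which is a log2 change of 0.85 with an adjusted p in limma of 0.236. PDP2 changed by 0.47. PFKFB3, the relative of PFKFB4 in the control of phosphofructokinase, changed by 0.37, with the arrays of the lines overlapping. Of the 14 other genes on this list, 10 passed the filters. Among these 10, 1 fell and none rose past FDR 5%, against 1.2% of all tested probe sets. The median change of the 14 was 0.20.

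Of the 17 genes of the oxygen-sensing machinery itself, 10 passed the filters. None of the 10 was past FDR 5%, against 1.2% of all tested probe sets. None of the 17 had an unadjusted p below 0.05 in limma, and the trend option called 1 of the 10. That gene was EGLN2, a HIF prolyl hydroxylase, at 7.13 and 7.01 in MCF10.AT1 and 7.72, 7.66 and 7.64 in MCF10.AT1-R, a log2 change of 0.61. CITED2, a HIF-induced competitor for the coactivators, changed by 0.36, and VHL, which tags hydroxylated HIF for destruction, by -0.34. For both genes the arrays of the lines overlapped. HIF1A, the oxygen-regulated subunit, read 9.34 and 9.26 in MCF10.AT1 and 9.03, 9.09 and 8.99 in MCF10.AT1-R, a change of -0.27 with no overlap (adjusted p = 0.843 from limma without a filter). HIF protein was not measured by these arrays.

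Among 42 further HIF targets, 29 passed the filters. Past FDR 5%, 2 of the 29 fell and 2 rose, against 1.2% of all tested probe sets. The median change of the 42 was -0.05. At an unadjusted p below 0.05 in limma there were 9 of the 42, counted in either direction. Besides the 4 past FDR 5%, these were DDIT4 (-0.94), IGFBP3 (-0.98), VLDLR (-0.99) and GBE1 (-0.87), lower, and TMEM45A (0.69), higher. The share of all tested probe sets, 4.27%, was counted for lower values alone, so it cannot be set beside the 9. VLDLR was above the negative controls on 1 of the 5 arrays and GBE1 on 4. LOX, the lysyl oxidase that crosslinks collagen, read 5.70 and 5.86 in MCF10.AT1 and 4.23, 4.05 and 4.17 in MCF10.AT1-R, which is a log2 change of -1.63 with an adjusted p in limma of 4.43e-05. STC2, a secreted glycoprotein of the stress response, read 6.99 and 6.61 against 5.35, 5.28 and 5.64, which is a log2 change of -1.37 with an adjusted p in limma of 0.00188. Without A01 its adjusted p from limma was 0.265.

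In the opposite direction, EDN1, the precursor of the vessel-constricting peptide endothelin, read 3.55 and 3.56 in MCF10.AT1 and 4.92, 4.63 and 5.80 in MCF10.AT1-R, which is a log2 change of 1.56 with an adjusted p in limma of 0.000133. The resistant arrays were spread widely (SD 0.61, n = 3). Its adjusted p in limma was 0.259 without a filter, 0.218 with the low-expression filter alone and 0.512 with values raised to the negative controls, in a range of 5.96e-06 to 0.512 over its alternatives. BHLHE40, a clock-linked repressor, read 6.23 and 5.88 against 7.10, 7.20 and 7.26, which is a log2 change of 1.13 with an adjusted p in limma of 0.0286. It fell short of FDR 5% without any 1 of the 5 arrays, with an adjusted p from limma between 0.0539 and 0.635.

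Of 19 relatives of VEGFA, ADM, CA9 and NDRG1 and their receptors, 12 passed the filters. Among these 12, 1 fell and none rose past FDR 5%, against 1.2% of all tested probe sets. The median change of the 19 was 0.07. NRP1, a coreceptor for VEGFA, read 8.75 and 8.89 in MCF10.AT1 and 7.14, 7.05 and 7.36 in MCF10.AT1-R, which is a log2 change of -1.64 with an adjusted p in limma of 4.09e-05. Its second probe set changed by -0.73. NRP2, its relative, read 8.06 and 8.19 against 7.33, 7.28 and 7.22, which is a log2 change of -0.85 with an adjusted p in limma of 0.239. CA12, the surface carbonic anhydrase next to CA9 in function, changed by -0.43 and NDRG3 by 0.52. The VEGF receptors FLT1 and KDR lay within the negative controls on all 5 arrays, as did CALCRL, the receptor of adrenomedullin.

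**Figure D4:**
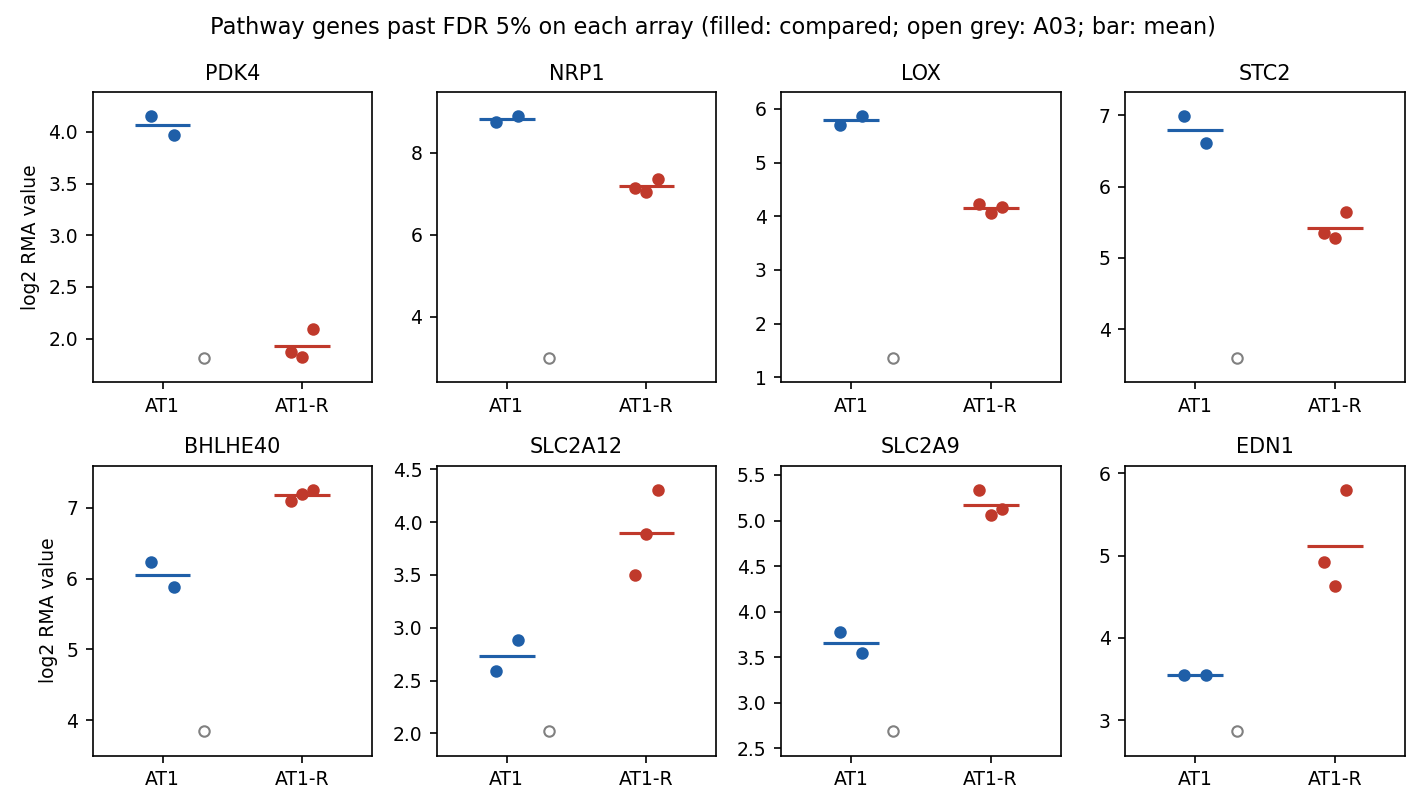
Each panel plots 1 of the 8 further pathway genes past FDR 5%, with the log2 RMA value on an axis of its own that does not start at 0, blue and red points for MCF10.AT1 and MCF10.AT1-R, a bar for the mean of each line and an open grey point for A03. Blue and red points are apart in every panel, and A03 lies below both other parental arrays in all 8.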

How the data were processed

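Total RNA of MCF10.AT1 and MCF10.AT1-R, 3 samples each, was hybridized to Clariom D arrays. The authors deposited log2 values made by RMA with the affy and oligo packages (versions not given in the sources used here). RMA pulls dim values together and understates their differences. The table of 138745 probe sets was unfiltered. The 2995 control probe sets were left out of all tests. Array names carry a letter, A or B, that was read here as the line, but no replicate number. Probe sets with a mean over the 5 arrays above 1.88 (the median) and an SD above 0.18 (the lowest 25%) were fitted in limma 3.58.1 (R 4.3.3), and p was adjusted by Benjamini-Hochberg over these 51457 probe sets, with a threshold of FDR 5%. Genes removed as invariant were taken from a fit without a filter. The probe set with the highest mean stood for a gene, and 3 older symbols were matched through RefSeq synonyms. The fit was run on simulated data with independent noise, without shared differences between arrays, as a check of the code. Named were the 10 genes, the list genes past FDR 5% and, where fewer than 3 passed, the 3 largest other changes above the negative controls. DDIT4, IGFBP3, VLDLR, GBE1, TMEM45A, NT5E, HIF1A, GAPDH, PGK1, ENO1, PKM, LDHB, PDK2, PDK3, FLT1, KDR and CALCRL were added after their values were seen. The genes and lists were chosen with earlier results of these data known. The number of arrays limits the precision. A further marker list is not reported here.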

Additional observations from a re-analysis of the deposited data

How the results depend on the processing

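No paired analysis was possible because the array names carry no replicate number of the labels. Over 15 alternatives each, the 10 genes had 141 results with the direction and the side of FDR 5% unchanged, and the 8 further genes had 85, with 34 no longer past it. Changes of the filter or of the trend option leave the log2 change as it is, so the direction could not turn in those alternatives. For the 10 genes this also held for the mean of all probe sets of a symbol, as each has a single probe set. With A03 as a parental array the change turned to 0.90 for SLC2A1, 0.53 for PFKFB4, 1.90 for LDHA, 0.34 for PDK1, 1.16 for VEGFA, 0.15 for NDRG1 and 0.30 for NRP1. HK2 turned to 0.19 without A01 and 0.07 without B03, in a range of -0.32 to 0.19 with an array left out. None of the 10 genes passed FDR 5% in limma under any alternative except VEGFA with the trend option, which made the count 1. The count of all probe sets, 620, became 44 with A03, 177 without a filter, 182 keeping just the low-expression filter, 1377 with the trend option, 177 with values under the negative controls raised to their 95th percentile (2.99) and 1086 with the low-expression filter and trend together, the last chosen after seeing the data. Leaving out an array gave 280 to 575, with 280 without A02 and 315 without A01. The count of further pathway genes, 8, became 0 with A03, 4 without a filter, 4 keeping just the low-expression filter, 15 with the trend option, 15 with the low-expression filter and trend together, and 1 with the raised values, where LOX passed. It was 5 to 7 with an array left out. The cause of these differences was not tested.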
